A study of Mus musculus with 12 samples.

Results

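The activating arm of the circadian clock was followed through 6 genes: Arntl (which encodes BMAL1), its paralog Arntl2 (BMAL2), Clock, its paralog Npas2, and the nuclear receptor genes Rora and Rorb. They were chosen by name, as the activators of the clock loop, and make up 6 of the 49315 gene identifiers counted. The 12 RNA-seq libraries were made from mouse adult fibroblasts (MAFs), which are primary ear cells, of C57BL6/J wild-type (WT) mice or of Bmal1 -/- (KO) mice. The 4 groups, each of 3 libraries, were control and senescent WT cells and control and senescent KO cells. Control cultures received sham irradiation, and senescent cultures received 20 Gy of X-rays. Per the paper's methods, irradiated cells were then kept in culture for several weeks, so their changes are not those of the first hours after irradiation. No such time is stated for control cultures, and the part of time in culture in the senescence changes was not tested. All 12 cultures were held in 3% oxygen, given 100 nM dexamethasone (a glucocorticoid that resets the clock) for 2 h and harvested 12 h afterwards. Each group was therefore sampled at a single clock time, so a shift in the phase of a rhythm and a change in its mean level cannot be told apart. The labels do not say which animals or cultures the replicates came from, and the p-values then measure only the spread between these libraries, which may be technical. The exons that the Bmal1 -/- allele lacks are not given in the sources used here.

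BMAL1 binds DNA as a dimer with CLOCK or with NPAS2, and these dimers switch on genes through the E-box. Among their targets are the Period and Cryptochrome genes, whose proteins block the dimer, and the genes of the REV-ERB receptors, which repress Arntl. The ROR receptors bind the same element in the Arntl promoter as the REV-ERBs and activate it, which closes a second loop around the first.

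Total counts were 23923030 to 31736083 per library, so 3 counts, taken as the detection floor, equalled 0.0945 to 0.125 CPM (a gene's count per 1000000 counts of its library; for all values below, library totals were first scaled by TMM, a standard correction for composition). All 6 genes passed the filter on low counts and stood above that floor in every library. On principal component 4 (4.57% of the variance of log2 CPM) WT control replicate 3 stood apart from the other libraries, and results that change a call without it are given both ways. KO libraries also differed within groups, by the squared count difference per gene relative to counting error. KO control replicate 1 stood at 18.3 and 13.8 from its partners, which were 3.85 apart. KO senescent replicate 3 stood at 19.7 and 14.95 from its partners, which were 8.335 apart. For WT control replicate 3 these values were 6.20 and 11.8. For the labelled cell type, 12 fibroblast marker genes were read, all of which were detected, with a summed level of 40680 to 76810 CPM. The largest part of that sum was Fn1, at group means of 31760 to 41140 CPM. Single markers moved in opposite ways: from WT control to WT senescent cells, Col1a1 went from 7318 to 1748 CPM and Dcn from 28.9 to 299 CPM. The sum therefore does not by itself fix the cell type, and markers of other cells are given below. The senescence label was accompanied by Cdkn1a, a cell cycle inhibitor, at 165 CPM in control and 621 CPM in senescent cells of WT, and at 221 and 682 CPM in those of KO. Mki67, a marker of dividing cells, was at 593 and 45.6 CPM in these WT groups and at 580 and 26.4 CPM in the KO groups. In these bulk libraries, fewer cells that express a gene and less RNA of it per cell cannot be told apart.

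The start of Arntl is shown because this gene moved in all the comparisons and because its promoter is where the ROR receptors are known to act. RefSeq start sites with windows from 250 bases before to 50 after were at hand for all 6 genes, 10 windows in all, on build GRCm38.p6. The 250 bases before the more distal Arntl start (chr7:113207215-113207464, plus strand) held no match to any motif searched:
Arntl upstream: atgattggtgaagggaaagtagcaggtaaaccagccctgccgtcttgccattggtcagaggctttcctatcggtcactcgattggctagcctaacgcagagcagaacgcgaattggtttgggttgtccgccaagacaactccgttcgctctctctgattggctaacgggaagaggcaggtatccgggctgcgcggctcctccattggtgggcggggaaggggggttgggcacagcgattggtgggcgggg
Both ROR element matches lay just after a start, on the plus strand and inside an annotated exon. They are printed with the matched letters in capitals, the first at chr7:113207485-113207514 and the second at chr7:113207531-113207560:
Arntl ROR element, variant form: ggagcggattggtcggaaagTAGGTTAgtg
Arntl ROR element, consensus form: aggcagaaagTAGGTCAgggacggaggtgc
The variant match began 40 bases after one start and the consensus match 30 bases after the other. The only further match among the 6 genes was an E-prime box 234 bases before an internal Rorb start, read on the opposite strand within chr19:19001332-19001361 (minus strand):
Rorb E-prime box: aatacacagcAACGTGattcatggggaggg

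The motifs were searched on both strands of 32851 RefSeq windows of this length. The consensus ROR element, TAGGTCA or TGGGTCA, occurred in 6.45% of all windows and in 1 of the 10 windows of the clock activators. The variant TAGGTTA occurred in 1.44% of all windows and in 2 of the 10, which overlap and share the 1 site. The E-prime box CACGTT was in 4.69% of all windows and in 1 of the 10. The E-box CACGTG (7.15% of all windows), the D-box TTATGTAA (0.938%) and the AP-1 site TGAGTCA (5.20%) were in none of the 10. A match is a description of letters, not of binding.

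Arntl (ENSMUSG00000055116, GRCm38 chromosome 7, 113207465 to 113314126, plus strand) is the targeted gene and was read first. The 3 WT control libraries held it at 29.8, 31.6 and 33.2 CPM and the WT senescent ones at 37.3, 35.8 and 35.2 CPM. The KO control libraries had 15.2, 11.8 and 12.5 CPM, against 27.0, 25.3 and 27.4 CPM in those of KO senescent cells. No pair of groups overlapped: KO control was lowest, then KO senescent, then WT control, and WT senescent was highest. Reads of Arntl were thus present in all KO libraries. The counts are summed over the whole gene, so they cannot place those reads inside or outside the deleted exons.

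In control cells the KO level of Arntl was lower than the WT level by a log2 fold change of −1.26 (SE 0.09, adjusted p = 2e-09, edgeR's quasi-likelihood test with Benjamini-Hochberg adjustment, as for every adjusted p below unless another tool is named). In senescent cells the difference was −0.44 (SE 0.08, adjusted p = 0.000329). With senescence, Arntl rose by 1.02 in KO cells (SE 0.09, adjusted p = 1.96e-09), a 2.02-fold increase. In WT cells it rose by 0.20 (SE 0.08, adjusted p = 0.0415). The KO change exceeded the WT change by 0.82 (SE 0.12, adjusted p = 7.58e-05, the interaction term of the edgeR fit). That difference kept its significance under all alternatives tried. The small WT increase did not: its adjusted p was 0.0879 with DESeq2 and reached 0.175 without WT control replicate 1.

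The exons of Arntl share 33 bp, or 0.439% of their length, with the antisense gene Gm45355, which had 0 to 11 counts in a library. Because the use of strand in counting is not stated, reads in that overlap cannot be assigned with certainty.

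**Figure D1:**
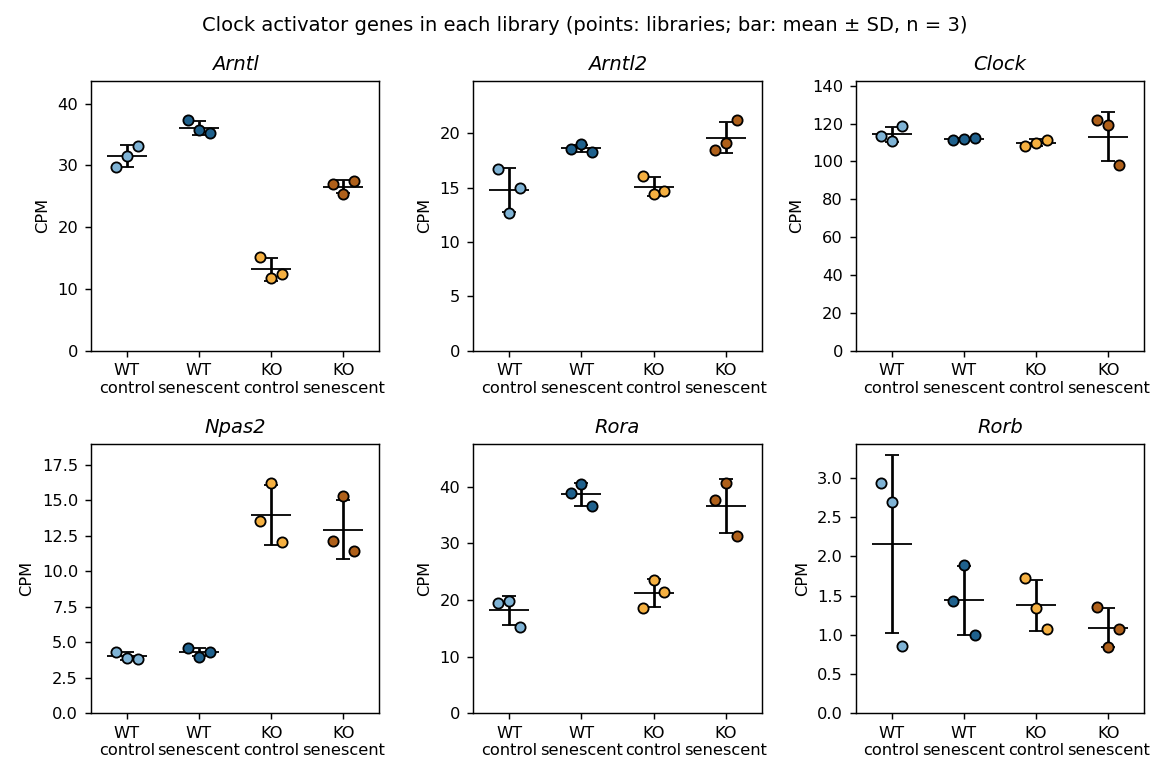
Level of each clock activator gene in CPM (vertical axis, from 0) in the 4 groups (horizontal axis); points are libraries and bars the mean ± SD of 3. Arntl separates all 4 groups, Npas2 separates KO (11.4 to 16.2 CPM) from WT (3.84 to 4.59 CPM), Rora separates senescent from control cells, and Clock does neither.

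Arntl2 (ENSMUSG00000040187, chromosome 6, 146796055 to 146833529, plus strand) encodes a BMAL1 paralog that can also dimerise with CLOCK. Its WT control libraries read 16.7, 12.7 and 14.9 CPM and its WT senescent libraries 18.6, 19.0 and 18.3 CPM. In KO cells the control libraries read 16.1, 14.4 and 14.7 CPM and the senescent ones 18.5, 19.1 and 21.2 CPM. Senescent libraries lay above control libraries in both genotypes, whereas WT and KO overlapped within each condition.

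Arntl2 rose with senescence by 0.34 on the log2 scale in WT cells (SE 0.10, edgeR adjusted p = 0.00533). The KO increase was 0.38 (SE 0.10, edgeR adjusted p = 0.00188). The difference between these changes was 0.04, with an approximate 95% interval from the SE of −0.22 to 0.31 (edgeR adjusted p = 0.866). Between genotypes, no difference was detected in control cells (log2 fold change 0.03, interval −0.16 to 0.22) or in senescent cells (0.07, interval −0.11 to 0.26).

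Clock (ENSMUSG00000029238, chromosome 5, 76209868 to 76304792, minus strand) encodes the usual partner of BMAL1. It was counted at 114, 111 and 119 CPM in WT control and at 111.5, 111.8 and 112.6 CPM in WT senescent libraries. KO control libraries gave 108.1, 110 and 111.6 CPM, and KO senescent libraries 121.8, 119.5 and 98.3 CPM. The 4 groups overlapped throughout, and the last KO senescent library was the lowest of the 12.

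No comparison of Clock passed the test. The log2 fold change with senescence was −0.03 in WT cells (approximate 95% interval −0.15 to 0.10, edgeR adjusted p = 0.724). In KO cells it was 0.04 (interval −0.08 to 0.17, edgeR adjusted p = 0.591). KO differed from WT by −0.06 in control cells (interval −0.18 to 0.07) and by 0.02 in senescent cells (interval −0.11 to 0.14). Without KO senescent replicate 3, the change in KO cells was 0.13 and passed (edgeR adjusted p = 0.0345).

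Npas2 (ENSMUSG00000026077, chromosome 1, 39193731 to 39363236, plus strand) encodes the CLOCK paralog that can take its place beside BMAL1. WT control libraries held it at 4.34, 3.91 and 3.84 CPM, and WT senescent libraries at 4.59, 4.0 and 4.32 CPM. KO control libraries held 13.6, 16.2 and 12.1 CPM, and KO senescent libraries 12.1, 15.3 and 11.4 CPM. The lowest KO library was above the highest WT library, and the conditions overlapped within each genotype.

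In control cells Npas2 was 3.46-fold higher in KO than in WT (approximate 95% interval 2.85 to 4.21, log2 fold change 1.79, SE 0.14, edgeR adjusted p = 1.91e-08). In senescent cells it was 3.00-fold higher (interval 2.48 to 3.63, log2 fold change 1.59, SE 0.14, edgeR adjusted p = 7.45e-08). Senescence moved it by 0.09 in WT cells (interval −0.21 to 0.40) and by −0.11 in KO cells (interval −0.36 to 0.14), and neither passed. Each deposited table held 1 genotype, so how a table was made and which genotype it holds cannot be told apart for this or any other KO against WT value.

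Rora (ENSMUSG00000032238, chromosome 9, 68653786 to 69388246, plus strand) encodes RORα, an activator of Arntl. WT control libraries showed 19.5, 19.8 and 15.3 CPM and WT senescent libraries 38.9, 40.4 and 36.5 CPM. Of the KO libraries, the controls showed 18.6, 23.5 and 21.5 CPM and the senescent ones 37.7, 40.7 and 31.3 CPM. Senescent and control libraries did not overlap in either genotype, and WT and KO overlapped within each condition.

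Rora rose by 1.08 on the log2 scale in WT cells (SE 0.11, edgeR adjusted p = 1.94e-07), a 2.12-fold increase. In KO cells it rose by 0.79 (SE 0.11, edgeR adjusted p = 8.01e-06), or 1.72-fold. The difference between these changes, −0.30, did not pass (SE 0.16, approximate 95% interval −0.60 to 0.01, edgeR adjusted p = 0.198). KO against WT was 0.22 in control cells (edgeR adjusted p = 0.245) and −0.08 in senescent cells (edgeR adjusted p = 0.630). The exons of Rora share 82 bp, 0.627% of their length, with the antisense gene Gm15511, which had 0 to 2 counts in a library.

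Rorb (ENSMUSG00000036192, chromosome 19, 18930605 to 19111196, minus strand) encodes RORβ, a receptor best known from neurons and the retina. WT control libraries contained 2.93, 2.69 and 0.857 CPM of it, and WT senescent libraries 1.43, 1.88 and 1.00 CPM. In KO libraries it was 1.72, 1.35 and 1.07 CPM under control conditions and 1.35, 0.850 and 1.08 CPM in senescence. These values rest on 19 to 73 counts per library, all groups overlapped, and WT control replicate 3 lay far below its 2 partners.

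No comparison of Rorb passed with all libraries. The log2 fold change with senescence was −0.59 in WT cells (SE 0.36, edgeR adjusted p = 0.173) and −0.34 in KO cells (SE 0.38, edgeR adjusted p = 0.467). KO against WT was −0.65 in control cells (SE 0.36, edgeR adjusted p = 0.271) and −0.41 in senescent cells (SE 0.38, edgeR adjusted p = 0.478). Without WT control replicate 3, the WT senescence change was −0.96 (edgeR adjusted p = 0.00847) and the control difference between genotypes −1.02 (edgeR adjusted p = 0.0243). In that library the summed level of 7 neuron and Schwann cell markers, 5 of which were tested, was also the lowest of its group, at 36.2 CPM against 71.2 and 81.9 CPM. The part of those cells in the Rorb values was not tested.

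Read over the whole set, senescence raised 3 of the 6 genes in WT cells (Arntl, Arntl2 and Rora) and lowered none of them at an adjusted p under 0.05 by edgeR. Of all 17416 genes tested, 29.2% were higher and 27% lower by that rule. DESeq2 passed 2 of the 6, both higher, and 3 had an unadjusted edgeR p under 0.05. In KO cells the same 3 genes rose and none fell (all genes: 28.5% higher, 28.6% lower), by DESeq2 also 3. With an absolute log2 fold change over 1 as well, the study's own threshold, 1 of the 6 remained in WT cells (Rora, against 17.4% of all genes) and 1 in KO cells (Arntl, against 18.8%). Both lay close to that threshold: Rora in WT cells was at 0.97 without WT control replicate 3, which left 0 of the 6. Arntl in KO cells was at 0.93 without KO control replicate 2, 0.98 without KO control replicate 3, 0.99 without KO senescent replicate 3 and 0.999 with no filter on low counts, which also left 0. The median log2 change of the 6 genes was 0.15 in WT and 0.21 in KO cells, beside 0.02 and −0.00275 for all genes.

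Between genotypes, 1 of the 6 was higher (Npas2) and 1 lower (Arntl) in KO control cells, where 8.07% of all genes were higher and 4.96% lower. In senescent cells it was again 1 higher and 1 lower, Npas2 and Arntl, against 11.9% and 11.8% of all genes. Both genes were past the fold threshold in control cells (2.54% of all genes), where Rorb joined them without WT control replicate 3, and Npas2 alone in senescent cells (3.48%). Arntl is the targeted gene, so a lower count of it in KO cells comes with the genotype and is no independent finding. The interaction passed for 1 of the 6, Arntl, in the positive direction, and for none in the negative, by edgeR and by DESeq2 alike. Of all genes, 9.24% passed higher, 11.7% lower, and 3.66% also exceeded a log2 size of 1, which Arntl did not. These comparisons share control or KO samples, so their counts are not independent of each other.

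**Figure D2:**
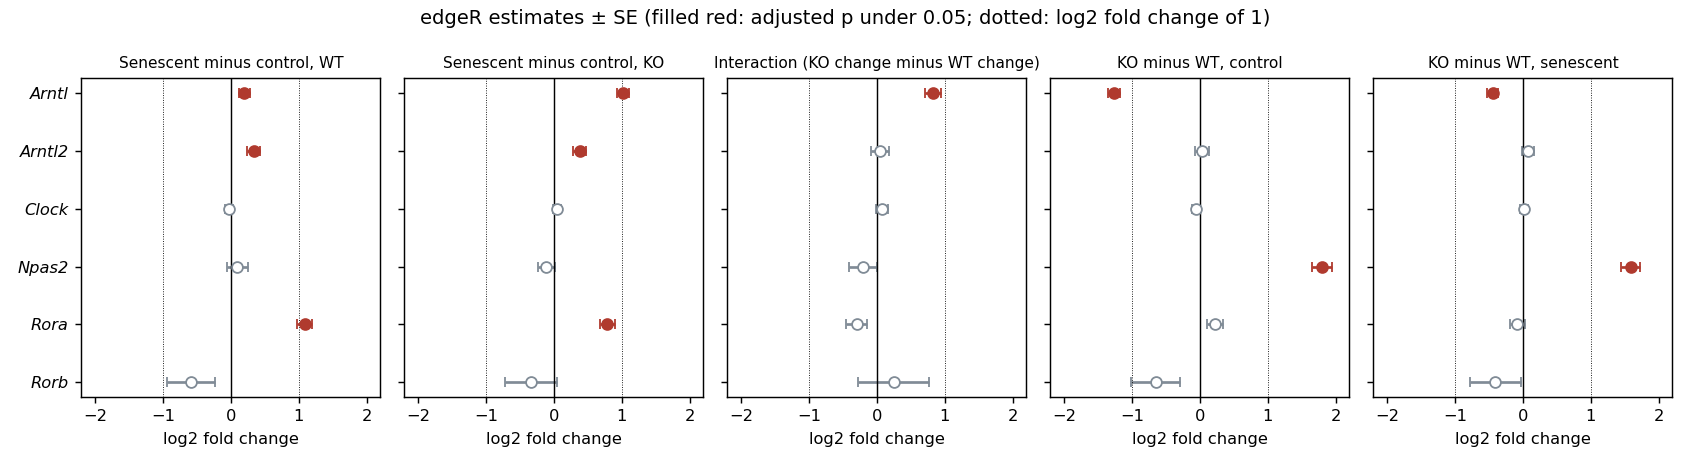
Log2 fold change ± SE of the 6 genes (rows) in the 5 comparisons (panels) from the edgeR fit; filled red points have an adjusted p under 0.05 and dotted lines mark a log2 fold change of 1. Arntl is filled in all 5 panels, Npas2 in both genotype panels, Rora and Arntl2 in both senescence panels, and Clock and Rorb in none.

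To compare levels between genes, CPM was divided by the length of each gene's exons in kilobases. On this scale Clock was the most abundant of the 6 in all 12 libraries, at group means of 8.01 to 8.33 CPM per kb, and Rorb the least, at 0.0987 to 0.195 CPM per kb. In all 6 WT libraries the order was Clock, Arntl, Arntl2, Rora, Npas2, Rorb. In KO control cells Arntl took place 4 in 2 libraries and place 5 in 1, and Npas2 took place 2 or 3. In KO senescent cells Arntl took place 2 in 2 libraries and place 3, after Arntl2, in the last. Annotated exon length is not the length of the transcripts present, which limits such orders where 2 genes lie close.

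**Figure D3:**
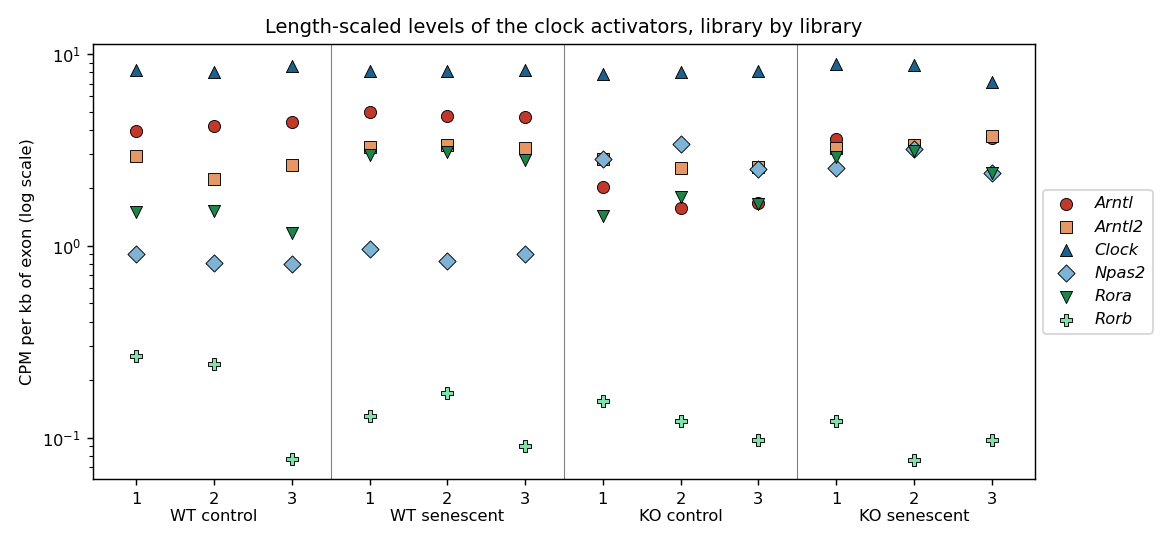
CPM per kb of annotated exon (vertical log axis) of the 6 genes in each of the 12 libraries (horizontal axis, by group and replicate number). Clock is highest and Rorb lowest throughout, and Npas2 lies below Rora in all WT libraries and above it in all KO control libraries.

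Paralogs were then compared within each library, which removes any scaling between libraries. Arntl exceeded Arntl2 per kb in WT cells: the log2 ratio of Arntl2 to Arntl was −0.70 ± 0.24 in control and −0.55 ± 0.05 in senescent cells (SD, n = 3). In KO control cells the ratio was 0.61 ± 0.11, with Arntl2 above Arntl in all 3 libraries. It was −0.04 ± 0.09 in KO senescent cells, where the pair stood about level and the sign varied between libraries. The exact two-sided permutation test on 3 against 3 libraries cannot go below p = 0.1, and 12 such tests were made. That smallest p was reached for KO against WT in control cells (1.30), KO against WT in senescent cells (0.51) and senescence in KO cells (−0.64), each with a Benjamini-Hochberg adjusted value of 0.171. Arntl, the targeted gene, is the denominator here, so its lower counts in KO cells raise this ratio by design. Arntl2 alone differed between genotypes by a log2 fold change of 0.03 in control and 0.07 in senescent cells.

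Clock exceeded Npas2 in every library, by 9.87-fold per kb in WT control and 9.06-fold in WT senescent cells, but by 2.77-fold in KO control and 3.06-fold in KO senescent cells. As a log2 ratio of Npas2 to Clock these are −3.30 ± 0.12, −3.18 ± 0.10, −1.47 ± 0.22 and −1.61 ± 0.18 (SD, n = 3). The genotype differences of 1.83 in control and 1.57 in senescent cells reached the smallest possible permutation p of 0.1 (exact, two-sided, adjusted 0.171). The log2 ratio of Rorb to Rora was −3.00 ± 0.77 in WT control and −4.54 ± 0.38 in WT senescent cells, and −3.70 ± 0.46 and −4.82 ± 0.43 in the KO groups. Its senescence differences, −1.53 in WT and −1.12 in KO cells, also reached the exact permutation p of 0.1 (adjusted 0.171).

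Summed by pair, the BMAL pair (Arntl and Arntl2) amounted to 6.78 ± 0.323 CPM per kb in WT control, 8.07 ± 0.164 in WT senescent, 4.40 ± 0.396 in KO control and 6.97 ± 0.350 in KO senescent cells (SD, n = 3). KO control libraries lay below all others in this sum. In KO cells, Arntl reads of the targeted allele made up 1.75 of it in control and 3.53 in senescent cells. The paper reports loss of the Bmal1 transcript in KO cells, by a measure other than these counts. The gene-level counts here still held Arntl reads in KO cells. Whether these reads come from RNA that can supply BMAL1 was not tested, so the KO sums are not taken to measure such RNA. The full exon length was used for Arntl in KO cells as well, with the deleted exons unknown. The partner pair (Clock and Npas2) amounted to 9.17 ± 0.281, 9.06 ± 0.0656, 10.9 ± 0.420 and 10.9 ± 1.24 CPM per kb in the same order of groups. KO libraries lay above WT libraries in that sum in control and in senescent cells alike. The senescent libraries spread from 9.54 to 11.9 CPM per kb in KO and from 8.98 to 9.10 in WT. In every group the partner pair was the more abundant at the RNA level.

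**Figure D4:**
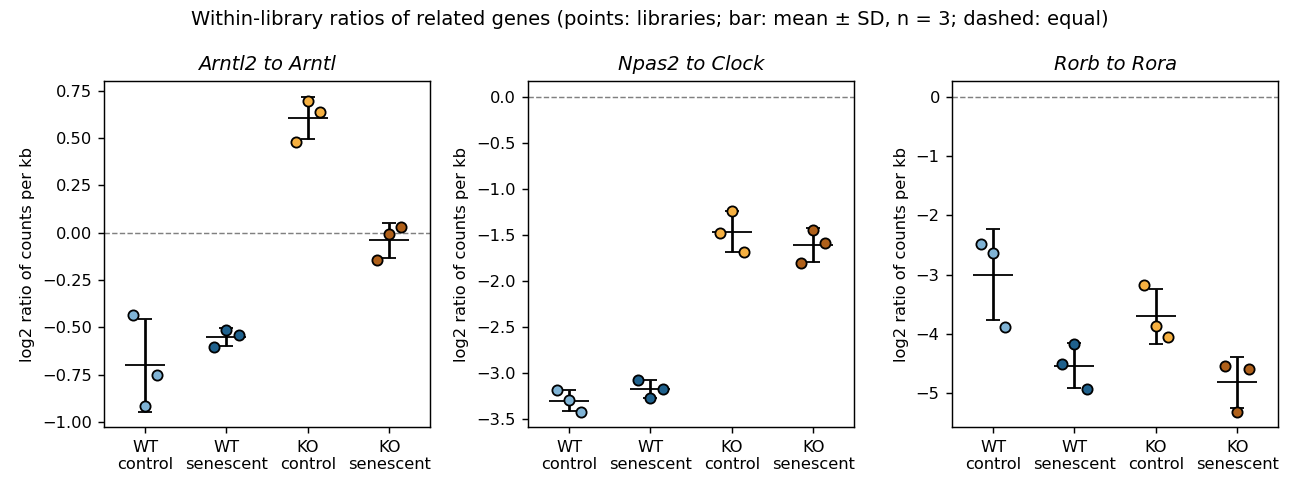
Log2 ratio of counts per kb of Arntl2 to Arntl, Npas2 to Clock and Rorb to Rora (vertical axes) in the 4 groups; points are libraries, bars the mean ± SD of 3, and the dashed line marks equal levels. Only the KO control libraries lie above the line in all 3 replicates for Arntl2 to Arntl, and the KO libraries sit above the WT libraries for Npas2 to Clock.

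For each gene, the 3 others of most similar pattern, among those that averaged 5 CPM or more, were found by the root mean square difference of gene-centred log2 CPM over the 12 libraries. The closest to Arntl were Irs2 (0.206), Klk8 (0.219) and Nuak2 (0.222), where the median over 10944 genes was 0.618. Npas2 was closest to Galnt17 (0.238), Plat (0.253), the gene of tissue plasminogen activator, and Rps4l (0.293), against a median of 0.872. Plat, for one, read 31.2 CPM in WT control, 36.2 CPM in WT senescent, 81.7 CPM in KO control and 94.5 CPM in KO senescent cells. Nearest to Rora were Cers4 (0.101), Syt11 (0.103) and Fam214a (0.114), beside a median of 0.549.

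Arntl2 lay closest to Vps50 (0.0711), Rragc (0.0733) and Adi1 (0.0740), and Clock to Notch2 (0.0346), Tln1 (0.0353) and Luzp1 (0.0407). Rorb lay closest to Rom1 (0.225), Reep6 (0.246) and Unc119 (0.253), among 10945 genes. Genes with little movement, such as Clock, have small differences from many genes on this measure, and a likeness over 12 libraries of 4 groups describes the group means above all.

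The genes that act on or answer to the activators were read as 3 lists. Of 15 repressors and outputs, 7 were higher and 3 lower in KO control cells (8.07% and 4.96% of all genes), with a median log2 fold change of 0.23 beside 0.01 for all genes. Cry1, which blocks the BMAL1 dimer, had 9.59 ± 1.31 CPM in WT and 45.8 ± 1.15 CPM in KO cells under control conditions (log2 fold change 2.26, SE 0.09, edgeR adjusted p = 2.36e-13). Nr1d1, the gene of REV-ERBα, a repressor of both Arntl and Npas2, was at 18.1 ± 2.78 and 4.13 ± 0.447 CPM (−2.12, SE 0.11, edgeR adjusted p = 4.16e-11). In senescent cells 7 were again higher and 3 lower (11.9% and 11.8% of all genes), with Nr1d2, the gene of REV-ERBβ, at 34.7 ± 3.39 CPM in WT and 5.96 ± 0.709 in KO cells (−2.54, SE 0.10, edgeR adjusted p = 4.29e-13).

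With senescence, 7 of the 15 rose and 5 fell in WT cells (median 0.09), where 29.2% of all genes rose and 27% fell. In KO cells 6 rose and 3 fell (median 0.14), where the shares of all genes were 28.5% and 28.6%, so most of these counts are near the background. Nr1d1 rose in both, by 0.87 in WT (SE 0.10, edgeR adjusted p = 1.03e-07) and in KO cells by 1.54 (SE 0.12, edgeR adjusted p = 3.13e-10), as Arntl and Rora did. The interaction passed for 1 of the 15 in the positive and 6 in the negative direction (9.24% and 11.7% of all genes), among them Per2, a Period repressor (−1.08, SE 0.21, edgeR adjusted p = 0.0011).

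Of 24 cofactors and modifiers of the clock proteins, none passed between KO and WT control cells by edgeR or by DESeq2. Of all genes, 8.07% were higher and 4.96% lower in that comparison by edgeR. An unadjusted edgeR p under 0.05 was seen for 3 of the 24. Without WT control replicate 3, 1 of the 24 passed. In senescent cells 5 were higher and 3 lower in KO (11.9% and 11.8% of all genes), among them Kat2b, a histone acetyltransferase, at 19.7 ± 1.75 CPM in WT and 13.1 ± 1.74 in KO cells (−0.59, SE 0.11, edgeR adjusted p = 0.000312). With senescence, 6 rose and 7 fell in WT cells (median −0.04), about the shares of all genes (29.2% and 27%). In KO cells 6 rose and 10 fell (median −0.11), beside 28.5% and 28.6% of all genes. Cipc, an inhibitor of CLOCK, rose by 0.64 in WT (SE 0.08, edgeR adjusted p = 2.71e-07) and in KO cells by 0.73 (SE 0.07, edgeR adjusted p = 2.7e-08). The interaction passed for 3 higher and 3 lower (9.24% and 11.7% of all genes), a count that fell to between 1 and 3 in all when any 1 of these libraries was left out: WT control replicate 3, WT senescent replicates 2 and 3, KO senescent replicate 3 and KO control replicate 2.

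The activators BMAL1, CLOCK and NPAS2 belong to the bHLH-PAS family, and 14 relatives outside the clock were read beside them. In WT senescent cells 8 of the 14 rose and 2 fell (median 0.30), beside 29.2% and 27% of all genes. In KO senescent cells 4 rose and 3 fell (median 0.02), about the shares of all genes (28.5% and 28.6%). Epas1, the gene of HIF-2α, rose by 1.45 in WT (SE 0.12, edgeR adjusted p = 1.38e-09) and in KO cells by 1.84 (SE 0.12, edgeR adjusted p = 2.46e-11). Arnt2, a dimer partner within the family, rose by 0.96 in WT cells (SE 0.07, edgeR adjusted p = 5.9e-11) and its interaction was −0.70 (SE 0.09, edgeR adjusted p = 3.32e-05), opposite in sign to that of Arntl. Between genotypes, 2 were higher and 1 lower in KO control cells (8.07% and 4.96% of all genes) and 2 higher and 4 lower in KO senescent cells (11.9% and 11.8%). The first of these counts was 1 in all without KO control replicate 3, and the second was 3 in all without WT senescent replicate 3. The interaction passed for 1 higher and 4 lower (9.24% and 11.7% of all genes).

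Markers of some other cells that an ear culture could hold moved with the groups. The summed level of 11 chondrocyte markers, 10 of which were tested and 1 of which was below 1 CPM everywhere, lay between 7796 and 9778 CPM among WT control libraries and between 2045 and 2357 CPM among WT senescent ones. In KO libraries that sum was 5060 to 7088 CPM in control and 640 to 737 CPM in senescent cells. The sum of 8 keratinocyte markers, 5 of which were tested and 4 of which were below 1 CPM everywhere, was higher in senescent than in control libraries without overlap, as were Arntl, Arntl2 and Rora. It went from 10.6 to 15.9 CPM in WT control to 26.8 to 30.3 CPM in WT senescent libraries, and from 11.6 to 13.8 CPM in KO control to 20.2 to 22.6 CPM in KO senescent libraries. Of the defining keratins, Krt14 stayed at group means of 0.0451 to 0.195 CPM, while Krt15 averaged 1.10 CPM in control and 9.80 CPM in senescent cells of WT. Krt5 averaged 1.37 and 5.14 CPM in these WT groups, and 0.941 and 5.56 CPM in the KO groups. Trp63 averaged 8.15 and 10.0 CPM in WT but 8.39 and 3.36 CPM in KO cells, so members did not all move with the sum. The sum of 6 skeletal muscle markers was carried by Acta1, a muscle actin, which averaged 49.1 CPM in control and 13.8 CPM in senescent WT cells, and 26.8 and 15.8 CPM in those of KO. The muscle regulators Myod1, Myog and Pax7 were at or near 0, with group means of at most 0.179 CPM. The part of chondrocytes and keratinocytes in the levels of Arntl, Arntl2 and Rora was not tested. No marker was at 0 in all libraries.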

How the data were processed

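The authors deposited raw counts as whole numbers, in 2 tables, 1 for each genotype. Per the submitters' processing notes, bcl2fastq 2.17, Trimmomatic 0.36, STAR 2.5.2b and the GRCm38 genome were used. The study's methods name featureCounts and unique reads in exons, and strand use and the annotation release are not given in the sources used here.

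Symbols, exon lengths and overlaps came from GENCODE annotation of GRCm38. In R 4.3.3, edgeR 4.0.16 kept 17416 genes with filterByExpr, scaled libraries by TMM (trimmed mean of M-values) and fitted 1 mean per group over all 12 libraries with a robust quasi-likelihood model. P-values were adjusted by Benjamini-Hochberg over all genes tested. Each SE was obtained as the absolute log2 fold change over the square root of F. Ratios of paralogs used a pseudocount of 0.5 counts. The fit was tested on simulated counts. Alternatives were DESeq2 1.42.0, its size factors, no filter, only the groups compared, a replicate block, each library left out, and the fold threshold.

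The 6 genes and all lists were chosen with earlier results of these data known. The text names these 6, the 3 nearest patterns to each, and from each list and comparison members of the 3 largest passing changes with a mean of at least 5 CPM. Floors cover counting error only, because reads carried no molecular identifiers.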

Additional observations from a re-analysis of the deposited data

Results flagged for a closer look

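The only result flagged was a difference between genotypes under the same contrast. The senescence change of Arntl was larger in KO than in WT cells by 0.82 on the log2 scale (SE 0.12, edgeR adjusted p = 7.58e-05, interaction term), with changes of 1.02 in KO and 0.20 in WT cells. All 3 KO senescent libraries were above all 3 KO control libraries, and all 3 WT senescent libraries above all 3 WT control libraries. Of all genes tested, 9.24% passed the interaction higher and 11.7% lower, so passing it does not by itself set Arntl apart. The Arntl value was under the log2 fold threshold of 1, which 3.66% of all genes passed as well. Arntl is also the targeted gene, and its KO reads cannot be placed inside or outside the deleted exons from gene-level counts.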

How the results depend on the processing

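Over the 6 genes and 5 comparisons, 482 of 504 alternative values kept their direction and their side of the threshold, 8 lost significance, 3 gained it and 11 changed sign. The 11 all came from leaving out a library and did not pass. With each library left out in turn, the log2 values concerned spanned 0: Arntl2 in the interaction (−0.0563 to 0.142), Arntl2 in KO against WT control (−0.0692 to 0.129), Clock in KO senescence (−0.00351 to 0.133), Clock in KO against WT senescent cells (−0.0387 to 0.108), Npas2 in KO senescence (−0.253 to 0.00848), Rora in KO against WT senescent cells (−0.164 to 0.0217) and Rorb in the interaction (−0.0345 to 0.611). All 8 losses were the WT senescence change of Arntl, whose adjusted p was 0.0543 with DESeq2 size factors, 0.0586 with no filter, 0.0879 with DESeq2 and up to 0.175 with a library left out. The gains were those given above for Clock without KO senescent replicate 3 and for Rorb without WT control replicate 3, and their causes were not tested. The same-numbered replicates of different groups correlated at −0.125 to 0.108 in their deviations, and differently numbered ones at −0.125 to 0.173. No pairing by number was visible, but deviations within groups of 3 cannot show that samples share no animal or culture. With a replicate block 3, 3, 1, 2 and 2 of the 6 genes passed in WT senescence, KO senescence, the interaction and KO against WT in control and in senescent cells, as without it.

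Requiring a log2 fold change over 1 by construction lowered the counts, in the same order of comparisons. Of all genes tested, 17.4%, 18.8%, 3.66%, 2.54% and 3.48% passed both thresholds. Of the 6 genes, 1, 1, 0 and 1 remained (both genes remained in KO against WT control). Of the 15 repressors and outputs, 2, 1, 2, 5 and 5 remained. Of the 24 cofactors, 3, 2, 1 and 1 remained (none for KO against WT control in either case). Of the 14 bHLH-PAS relatives, 3, 1, 1, 1 and 1 remained. With each library left out, the cofactors that passed ranged from 1 to 7 in the interaction and from 0 to 1 in KO against WT control, and the bHLH-PAS relatives from 1 to 3 in KO against WT control and from 3 to 7 in KO against WT senescent cells. Depth limits Rorb, at 19 to 73 counts per library.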
